A study of Homo sapiens with 6 samples.

Results

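TTR, which encodes the carrier protein transthyretin, and 8 further genes named for the choroid plexus were followed through 6 RNA libraries: OTX2, LMX1A, CLIC6, HTR2C, AQP1, FOLR1, PRLR and SLC4A5. They were picked by symbol, 9 of the 59151 genes in the deposited table, and all 9 were found. TTR was singled out for its difference from the scramble libraries in these same data, so the levels of the 9 genes against scramble are a description and carry no test. The cells were day 26 forebrain neuron progenitor cells, labelled as H9-derived forebrain neurons. H9 is an established human embryonic stem cell line. The first group carried shRNA1 and the second shRNA2, hairpin RNAs aimed at circRTN4(2,3), which is circular RNA from RTN4. The third group carried a scrambled hairpin and is given as wild type in the labels. Each of the 3 groups had 2 libraries of ribosomal RNA-depleted total RNA. All groups therefore share the H9 background, the forebrain differentiation and the expression of some hairpin. The labels number the replicates without saying that they were separate cultures, so p-values reflect how far these libraries spread, and that spread may be technical.

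The choroid plexus is the epithelium that secretes cerebrospinal fluid into the brain ventricles. It forms from the dorsal midline of the neural tube, where roof plate and cortical hem signals of the BMP and WNT families act and where LMX1A and OTX2 are expressed. Its mature cells release transthyretin, which carries thyroxine and, bound to retinol-binding protein, retinol. They also move ions, water and folate across the epithelium and carry receptors for serotonin and prolactin. Transthyretin is also made by liver and yolk sac cells, OTX2 is used by retinal pigment cells, and LMX1A by the midbrain floor plate, so none of these genes marks the choroid plexus alone.

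Levels are given in FPKM, fragments scaled by gene length and by the library's total. The totals behind the values were 82353637 and 78488667 reads for shRNA1, 83629504 and 79949303 for shRNA2, and 46634855 and 77187298 for scramble. Replicates were least alike in the scramble group, where the SD of a gene's replicates, as a median over genes (log2), was 0.109, against 0.0355 in shRNA1 and 0.0452 in shRNA2. RTN4, the host gene of the target, had 34.2 and 34.7 FPKM with shRNA1, 31.2 and 31.3 FPKM with shRNA2, and 40.3 and 38.5 FPKM with scramble. Both hairpin groups lay below scramble for RTN4, by 0.19 ± 0.0503 (shRNA1) and 0.32 ± 0.0503 (shRNA2) on the log2(FPKM + 1) scale (limma estimate ± SE), and neither passed (adjusted p = 0.419 and 0.0756). Gene-level FPKM does not separate linear from circular RTN4 reads, so it does not check the knockdown of the circular RNA.

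The choroid plexus name was checked against 25 other genes of that epithelium. Averaged over the 6 libraries, only 6 of the 25 reached 1 FPKM, and those with high means, such as IGFBP2, PLTP and SLC29A4, are also expressed elsewhere. KL, the Klotho gene, stayed between 0.00229 and 0.0606 FPKM in every library, and KCNJ13, a potassium channel of the choroid plexus, between 0.98 and 1.27 FPKM. SOX2, a neural progenitor gene, was far higher than either, at 28.6 and 29.1 FPKM (shRNA1), 32.0 and 31.8 FPKM (shRNA2), and 32.7 and 31.0 FPKM (scramble). Progenitor genes were not all so high: OTX1 lay between 1.01 and 2.03 FPKM, below IGFBP2 and PLTP. The 9 genes are called choroid plexus genes only as the name of the list.

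Sequence upstream of the transcription start is shown for the 2 transcription factors, because LMX1A was lower with both hairpins and OTX2 was not. The RefSeq promoter table of GRCh38.p14 held 6 of the 9 genes in 10 windows; TTR, CLIC6 and FOLR1 were not in it. Each sequence below is the 250 bases before a transcription start, written 5′ to 3′ on the gene's strand. The LMX1A window is chr1:165356716-165356965 on the minus strand with 75.2% G or C. The OTX2 window is chr14:56810480-56810729 on the minus strand with 47.2% G or C.
LMX1A: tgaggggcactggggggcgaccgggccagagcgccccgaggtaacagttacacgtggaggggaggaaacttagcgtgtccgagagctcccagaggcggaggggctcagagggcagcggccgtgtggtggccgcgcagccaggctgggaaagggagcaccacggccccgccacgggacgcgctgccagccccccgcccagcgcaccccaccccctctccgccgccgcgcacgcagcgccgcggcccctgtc
OTX2: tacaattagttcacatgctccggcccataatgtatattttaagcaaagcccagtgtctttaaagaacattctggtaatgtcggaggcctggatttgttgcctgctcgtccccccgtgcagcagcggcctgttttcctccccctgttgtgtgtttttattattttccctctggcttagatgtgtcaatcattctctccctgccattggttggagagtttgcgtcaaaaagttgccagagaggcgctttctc
TAATCC (or GGATTA on the other strand), the core that OTX-type homeodomains bind, occurs in 0 of the 10 windows, and 5.62% of all 35116 windows in the table hold it. TAATTA, a palindrome bound by many homeodomain proteins including the LIM class, occurs in 1 of the 10, a window of SLC4A5, and 4.35% of all windows hold it. A match to the one motif is never a match to the other, and no base is in capitals above because both printed windows lack both. These counts describe letters in short windows only.

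TTR had the widest range of the 9 genes. It had 0.497 and 0.785 FPKM with shRNA1, 0.0577 and 0.0632 FPKM with shRNA2, and 6.03 and 6.63 FPKM with scramble. The 3 groups did not overlap, with shRNA2 lowest and scramble highest. The means were 0.641 ± 0.204 FPKM (shRNA1), 0.0605 ± 0.00391 FPKM (shRNA2) and 6.33 ± 0.429 FPKM (scramble; SD, n = 2 each). As a share of the scramble mean, TTR stood at 10.1% with shRNA1 and 0.955% with shRNA2, which is 9.88-fold and 105-fold lower. At the GENCODE v29 exon length of TTR these values correspond to about 98.0 and 147 reads (shRNA1), 11.6 and 12.1 reads (shRNA2), and 673 and 1230 reads (scramble). The shRNA2 values were above the level of 3 reads, 0.015 and 0.0157 FPKM in those libraries. In bulk RNA, fewer cells that express a gene and less RNA per cell cannot be told apart.

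The TTR gene lies on chromosome 18 from 31591877 to 31598821 on the plus strand. Its neighbours on the chromosome did not show its pattern of levels. DSG2, a desmosome cadherin, had 1.43 and 1.58 FPKM (shRNA1), 1.97 and 2.08 FPKM (shRNA2), and 2.15 and 1.83 FPKM (scramble). B4GALT6, a galactosyltransferase, had 1.57 and 1.72 FPKM (shRNA1), 1.76 and 1.79 FPKM (shRNA2), and 2.01 and 1.7 FPKM (scramble). DSG2 with shRNA2 and B4GALT6 with both hairpins overlapped scramble.

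**Figure D1:**
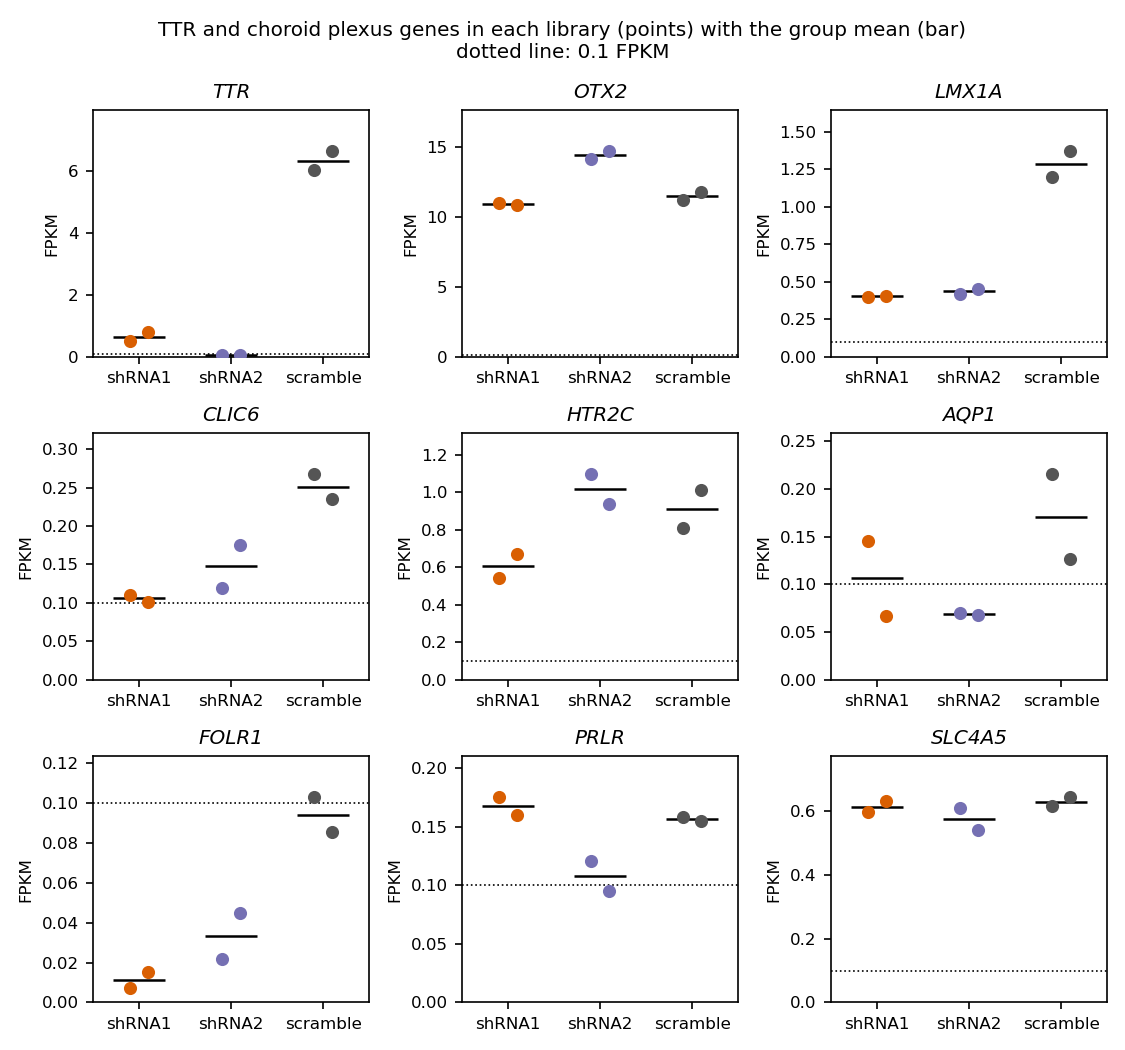
FPKM of each of the 9 genes (vertical axis, a scale of its own in each panel) in the shRNA1, shRNA2 and scramble libraries, with points for libraries, bars for group means and a dotted line at 0.1 FPKM. TTR and LMX1A are lower in all 4 hairpin libraries than in scramble, while OTX2 lies between 10.8 and 14.7 FPKM throughout.

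OTX2, a homeobox transcription factor of the early forebrain, choroid plexus and eye, had the highest level per length of the 9 genes. It had 11.0 and 10.8 FPKM with shRNA1, 14.1 and 14.7 FPKM with shRNA2, and 11.2 and 11.8 FPKM with scramble. The shRNA1 pair lay just under scramble, at 95% of its mean, and the shRNA2 pair above it, at 125.0%. On the log2(FPKM + 1) scale the differences from scramble were -0.07 ± 0.0514 for shRNA1 and 0.30 ± 0.0514 for shRNA2 (SE). OTX2-AS1, an antisense transcript at the locus (chromosome 14, 56799905 to 56810479 for OTX2, minus strand), had 0.25 and 0.281 FPKM (shRNA1), 0.392 and 0.51 FPKM (shRNA2), and 0.276 and 0.403 FPKM (scramble). Its level was a small share of that of OTX2, and without a stated strand setting reads of the pair cannot be told apart where they overlap.

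LMX1A, a LIM homeobox factor of the roof plate and cortical hem, had 0.398 and 0.408 FPKM with shRNA1, 0.419 and 0.453 FPKM with shRNA2, and 1.2 and 1.37 FPKM with scramble. Both hairpin groups were below scramble and close to each other, at 31.3% (shRNA1) and 33.9% (shRNA2) of the scramble mean. The values correspond to about 137 and 134 reads (shRNA1), 147 and 152 reads (shRNA2), and 234 and 443 reads (scramble), so LMX1A was well above the level of 3 reads in every library. The gene lies on chromosome 1 from 165201867 to 165356715 on the minus strand. TTR therefore differed by 10.6-fold between the hairpins, shRNA2 below shRNA1, while LMX1A stood at 108% with shRNA2 relative to shRNA1.

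Among the receptors, HTR2C, the serotonin 2C receptor gene (chromosome X, 114584086 to 114910061), had 0.539 and 0.671 FPKM with shRNA1, 1.1 and 0.938 FPKM with shRNA2, and 0.81 and 1.01 FPKM with scramble. Its shRNA1 libraries were lowest, and the shRNA2 and scramble libraries overlapped. PRLR, the prolactin receptor gene (chromosome 5, 35048756 to 35230487), had 0.175 and 0.16 FPKM with shRNA1, 0.121 and 0.0949 FPKM with shRNA2, and 0.158 and 0.155 FPKM with scramble. PRLR with shRNA1 was at 107% of the scramble mean and with shRNA2 at 68.9%, so the hairpins lay on opposite sides of scramble.

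FOLR1, the folate receptor alpha gene (chromosome 11, 72189709 to 72196323), was at the edge of detection. It had 0.00729 and 0.0153 FPKM with shRNA1, 0.0215 and 0.0451 FPKM with shRNA2, and 0.103 and 0.0856 FPKM with scramble. These are about 0.99 and 1.98 reads (shRNA1), 2.97 and 5.94 reads (shRNA2), and 7.92 and 10.9 reads (scramble). The scramble libraries were highest without overlap, but 3 of the 4 hairpin libraries held no more than 3 reads, and no fold is given. In GENCODE v29 an antisense gene overlaps FOLR1.

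The channel and transporter genes were low in every library. CLIC6, of the chloride intracellular channel family (chromosome 21, 34668994 to 34718223), had 0.11 and 0.101 FPKM with shRNA1, 0.119 and 0.176 FPKM with shRNA2, and 0.267 and 0.235 FPKM with scramble. Scramble was highest without overlap, and the hairpin groups stood at 42.1% (shRNA1) and 58.8% (shRNA2) of its mean. AQP1, the water channel of the epithelium's ventricular surface (chromosome 7, 30911853 to 30925516), had 0.146 and 0.0668 FPKM with shRNA1, 0.0696 and 0.0674 FPKM with shRNA2, and 0.215 and 0.126 FPKM with scramble. AQP1 libraries of shRNA1 and scramble overlapped, and the shRNA2 libraries were below scramble. SLC4A5, a sodium bicarbonate cotransporter (chromosome 2, 74216242 to 74343416), had 0.598 and 0.633 FPKM with shRNA1, 0.611 and 0.541 FPKM with shRNA2, and 0.617 and 0.645 FPKM with scramble. It had the narrowest range of the 9, with group means at 97.5% (shRNA1) and 91.3% (shRNA2) of scramble. AQP1 overlaps a readthrough gene and SLC4A5 overlaps MTHFD2 in GENCODE v29, so part of their reads may be unassigned or shared.

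Against the level of 0.1 FPKM, 11 of the 54 values lay below it, in 4 of the 9 genes. TTR was below in both shRNA2 libraries. AQP1 was below in shRNA1 replicate 2 and both shRNA2 libraries, and PRLR in shRNA2 replicate 2. FOLR1 was below in every library except scramble replicate 1. OTX2, LMX1A, CLIC6, HTR2C and SLC4A5 were never below. The values nearest to the level were 0.0949 FPKM (PRLR, shRNA2 replicate 2) and 0.0856 FPKM (FOLR1, scramble replicate 2) on the lower side, and 0.101 FPKM (CLIC6, shRNA1 replicate 2) and 0.103 FPKM (FOLR1, scramble replicate 1) on the upper side.

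With shRNA1, both libraries lay below both scramble libraries for 6 of the 9 genes and above for 1, PRLR, with overlap for AQP1 and SLC4A5. Of all genes, 15.3% lay below in this way and 15.9% above. With shRNA2, 7 of the 9 lay below and 1, OTX2, above, with overlap for HTR2C, where 21.1% of all genes lay below and 15.8% above. TTR, LMX1A, CLIC6 and FOLR1 (4 genes) were below both scramble libraries in all 4 hairpin libraries, as were 8.7% of all genes. Both comparisons use the same scramble libraries, and TTR was chosen from this contrast, so nothing is read from these counts. The median ratio to scramble over the 9 genes was 0.622 with shRNA1 and 0.588 with shRNA2. These are the ratios of AQP1, whose shRNA1 libraries overlapped scramble, and of CLIC6. The medians include TTR and the few reads of FOLR1 and have no all-gene ratio beside them, so nothing is read from them either.

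**Figure D2:**
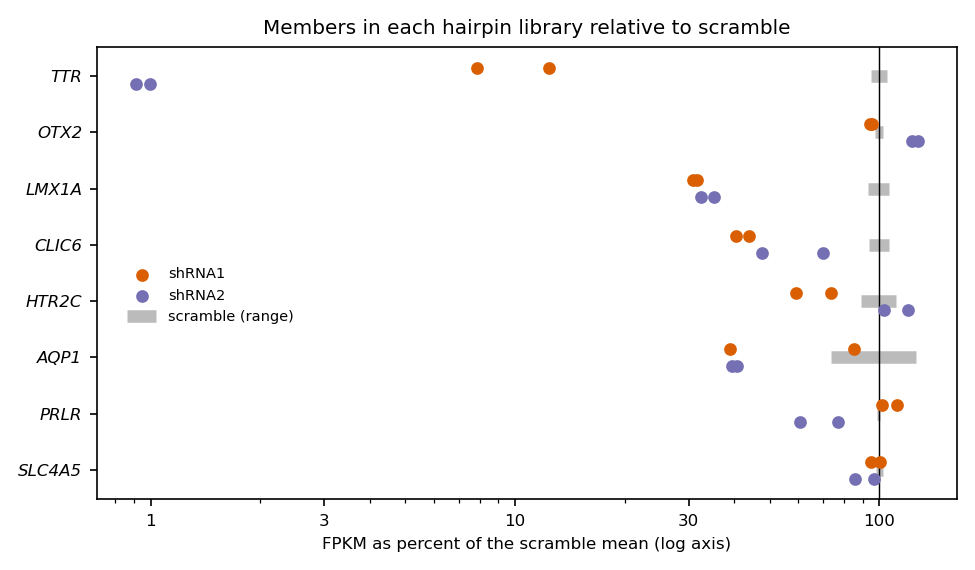
FPKM of 8 genes in each hairpin library as a percent of the scramble mean (horizontal log axis), with points for libraries, a grey bar for the range of the scramble libraries and a line at 100 percent. FOLR1 is left out because it rests on too few reads. Among the 8 plotted genes TTR is lowest, at 10.1% (shRNA1) and 0.955% (shRNA2) on average. TTR was chosen for its difference from scramble in these data, so nothing is read from that place.

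The hairpins were compared with each other in a limma fit of all 6 libraries, with Benjamini-Hochberg adjustment over all tested genes. TTR and OTX2 entered this fit on log2(FPKM + 1), which took genes averaging 1 FPKM or more, and the other 7 genes were under that mean. TTR reached that mean only through the scramble libraries, its hairpin means being 0.641 FPKM (shRNA1) and 0.0605 FPKM (shRNA2). Of those 7, all but FOLR1 entered a second fit on log2(FPKM + 0.1) for genes averaging 0.1 FPKM or more. None of the 9 genes passed between shRNA2 and shRNA1, and of the 18159 genes tested in the first fit 0 did (0.0% in each direction), though 2925 genes (16.1%) had an unadjusted p under 0.05. For TTR the shRNA2 minus shRNA1 difference was -0.62 ± 0.105 on the log2(FPKM + 1) scale (95% interval -0.89 to -0.36, adjusted p = 0.137, limma). With 0.1 added in place of 1 it was -2.18 (95% interval -2.72 to -1.64, adjusted p = 0.155, limma). For OTX2 the difference was 0.37 ± 0.0514 (95% interval 0.24 to 0.50, adjusted p = 0.124, limma). It passed in 3 alternatives, with adjusted p = 0.0424 or 0.0415 without 1 of the scramble libraries and 0.0424 with only the shRNA2 and shRNA1 libraries in the fit.

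Of the low genes, HTR2C had the largest difference between hairpins, 0.67 ± 0.175 on the log2(FPKM + 0.1) scale (95% interval 0.22 to 1.11, adjusted p = 0.293, limma). PRLR differed by -0.37 (interval -0.83 to 0.09), CLIC6 by 0.26 (-0.25 to 0.77) and AQP1 by -0.26 (-1.0 to 0.47). For LMX1A the interval was -0.25 to 0.43 and for SLC4A5 it was -0.42 to 0.25, both around 0. By position alone, 5 of the 9 genes had both shRNA2 libraries above both shRNA1 libraries and 2 had them below, against 16.3% and 26.9% of all genes.

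The genes most like TTR across the 6 libraries were found by Pearson's r on log2(FPKM + 1). They were PNO1 (0.997), COL3A1 (0.996), LAMB1 (0.996), ZCRB1 (0.996), HNRNPAB (0.995) and RSPO3 (0.992). These correlations rest on 6 libraries in 3 groups, so each mainly ranks the group means, and they are a description of likeness without a test. In size the genes differed widely. COL3A1, a fibrillar collagen of connective tissue, had 0.538 and 0.476 FPKM (shRNA1), 0.079 and 0.0459 FPKM (shRNA2), and 3.16 and 3.49 FPKM (scramble), a range near that of TTR. HNRNPAB, an RNA-binding protein gene, had 37.2 and 38.4 FPKM (shRNA1), 36.6 and 36.2 FPKM (shRNA2), and 42.9 and 44.1 FPKM (scramble), the same order of groups with a far smaller range. For OTX2 the most like genes were ATP2B4 (0.988), TMEM14EP (0.985), MFSD4B (0.985), CDON (0.983), ACBD7 (0.983) and ZNF788 (0.982). CDON, a cell surface co-receptor of hedgehog signals, had 7.87 and 8.05 FPKM (shRNA1), 11.4 and 11.0 FPKM (shRNA2), and 8.19 and 8.62 FPKM (scramble).

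**Figure D3:**
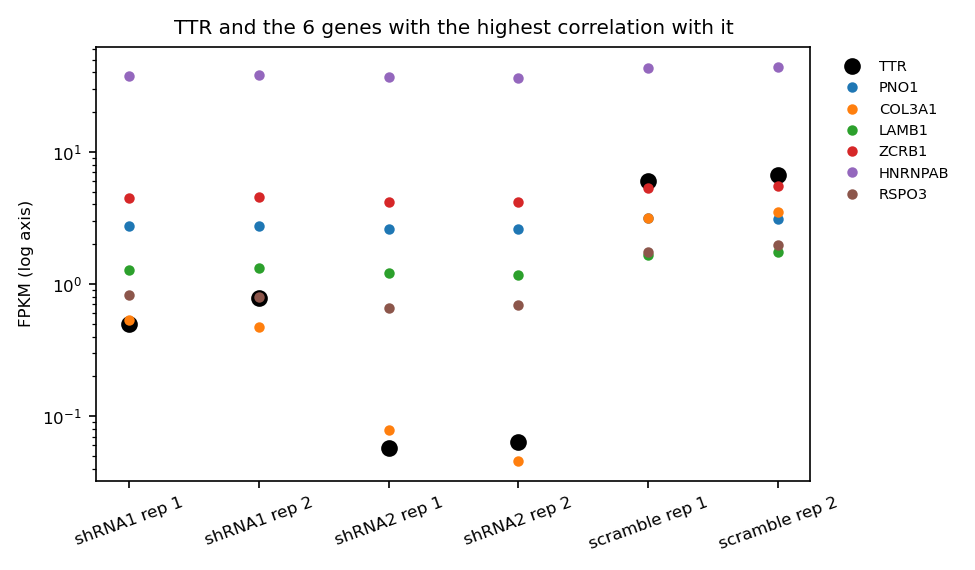
FPKM (vertical log axis) of TTR and its 6 most like genes in the 6 libraries, each point 1 library. TTR and COL3A1 span the widest range, from under 0.1 FPKM in the shRNA2 libraries to over 3 FPKM in the scramble libraries.

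The signals that pattern the dorsal midline were read from 20 roof plate and cortical hem genes, of which 10 averaged 1 FPKM or more and were tested. The list was chosen with earlier results of these data known, so its counts are a description and no independent evidence of a direction. With shRNA1, 2 of the 10 were called lower and 0 higher, and with shRNA2, 3 were called lower and 0 higher. The 10 and the 3 include RSPO3, which averaged 1 FPKM or more only through scramble. Its means were 0.812 FPKM (shRNA1), 0.674 FPKM (shRNA2) and 1.87 FPKM (scramble), so its call is not counted as support. Of all tested genes 0.033% were called lower and 0.0% higher with shRNA1, and 0.441% lower and 0.187% higher with shRNA2. Without adjustment, 8.98% (shRNA1) and 19.2% (shRNA2) of the tested genes had a p under 0.05. The median log2 difference of the 10 was -0.50 (shRNA1) and -0.49 (shRNA2), beside -0.003 and -0.064 over all tested genes. Both hairpin comparisons use the same scramble libraries.

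RSPO2, a secreted amplifier of WNT signals, had 1.71 and 1.53 FPKM with shRNA1, 1.35 and 1.03 FPKM with shRNA2, and 5.79 and 6.17 FPKM with scramble. It fell with both hairpins, by 1.41 ± 0.0913 with shRNA1 (adjusted p = 0.0466, limma) and by 1.68 ± 0.0913 with shRNA2 (adjusted p = 0.0182), on the log2(FPKM + 1) scale. WNT8B, which encodes a cortical hem WNT ligand, had 1.53 and 1.53 FPKM with shRNA1, 2.77 and 2.83 FPKM with shRNA2, and 4.55 and 4.68 FPKM with scramble. It fell by 1.15 ± 0.0527 with shRNA1 (adjusted p = 0.0169, limma) and by 0.56 ± 0.0527 with shRNA2 (adjusted p = 0.042). RSPO3, of the same family as RSPO2, had 0.821 and 0.804 FPKM with shRNA1, 0.656 and 0.692 FPKM with shRNA2, and 1.76 and 1.98 FPKM with scramble. The shRNA2 difference of -0.78 had an adjusted p of 0.0393 (limma), and the shRNA1 difference of -0.66 did not pass (adjusted p = 0.146). RSPO3 averaged 1 FPKM or more only through the scramble libraries, so its entry into the fit rests on the group where it was high.

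These calls depended on the setting. RSPO2 with shRNA2 passed in 9 of 16 alternatives (adjusted p from 0.012 to 0.206) and with shRNA1 in 2 of 15 (0.0243 to 0.66). WNT8B passed in 6 of 15 with shRNA1 (0.0147 to 0.431) and 5 of 16 with shRNA2 (0.026 to 0.367), and RSPO3 in 7 of 16 with shRNA2 (0.026 to 0.367). In all of the alternatives with a fit these 3 genes stayed lower than scramble. Those alternatives reuse the same libraries, in which the 3 genes did not overlap scramble, so the kept sign is no further support. In position, 15 of the 20 genes were below both scramble libraries in all 4 hairpin libraries, as were 8.7% of all genes. MSX1, MSX2, BMP7 and WNT5A were among the 15. CDKN1C, a cell cycle inhibitor, was above scramble with both hairpins (116% with shRNA1 and 128% with shRNA2), and WNT2B with shRNA2 only (116%). WNT1 was above with shRNA1 (125%), and with shRNA2 its mean was 126% of scramble but its libraries overlapped scramble. These 7 genes were named after their values were seen. The summed level of the 20 genes was 22.6 to 23.2 FPKM (shRNA1), 22.4 to 24.1 FPKM (shRNA2) and 36.0 to 43.5 FPKM (scramble).

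Of the 25 other choroid plexus genes, 6 were tested and 0 were called in any of the 3 comparisons, with medians of -0.01 (shRNA1) and -0.13 (shRNA2). KCNJ13 had 1.08 and 1.2 FPKM (shRNA1), 0.98 and 1.13 FPKM (shRNA2), and 1.16 and 1.27 FPKM (scramble). In all 4 hairpin libraries 7 of the 25 were below scramble: CLDN1, CLDN3, SLC13A4, KRT8, KRT18, TRPM3 and F5, beside 8.7% of all genes. ENPP2 was above scramble with shRNA2 (130%) and overlapped it with shRNA1, and these 8 genes were named after their values were seen. TRPM3, a cation channel gene, had 0.396 and 0.399 FPKM (shRNA1), 0.51 and 0.524 FPKM (shRNA2), and 1.48 and 1.42 FPKM (scramble), an order like that of LMX1A. On the log2(FPKM + 0.1) scale TRPM3 did not pass (adjusted p = 0.122 for shRNA1 and 0.0527 for shRNA2, limma).

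No gene of fluid secretion or of thyroid hormone and retinol carriage passed, and most of each list was too low to be tested. Of 16 genes for ion, bicarbonate and water transport, 7 were tested and 0 called, with medians of 0.04 (shRNA1) and -0.02 (shRNA2). SLC4A7, a sodium bicarbonate cotransporter, had 9.52 and 9.97 FPKM (shRNA1), 9.05 and 9.26 FPKM (shRNA2), and 10.1 and 8.88 FPKM (scramble). CA2, carbonic anhydrase 2, named after its values were seen, had 0.824 and 0.584 FPKM (shRNA1), 0.737 and 0.822 FPKM (shRNA2), and 1.23 and 1.51 FPKM (scramble). By position 3 of these 16 lay below scramble and 5 above with shRNA1, beside 15.3% and 15.9% of all genes. With shRNA2 5 lay below and 2 above, beside 21.1% and 15.8%. CLCN2, a chloride channel gene also named after its values were seen, was above with both hairpins (123% with shRNA1 and 126% with shRNA2). Of 16 genes for the carriage of and response to thyroid hormone and retinol, 5 were tested and 0 called. Their medians were 0.03 (shRNA1) and -0.14 (shRNA2), beside -0.003 and -0.064 over all tested genes. LRP2, the uptake receptor megalin, had 2.86 and 2.9 FPKM (shRNA1), 2.89 and 2.86 FPKM (shRNA2), and 3.86 and 3.74 FPKM (scramble), with adjusted p = 0.288 (shRNA1) and 0.0824 (shRNA2) by limma.

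Partners of the receptors and relatives of the transcription factors were not called either. Of 18 folate, prolactin and serotonin genes 8 were tested, and of 7 OTX and LMX relatives 3 were tested, with 0 called in each comparison. GNAQ, the G protein subunit that serotonin 2C receptors use, had 16.8 and 16.8 FPKM (shRNA1), 14.4 and 14.6 FPKM (shRNA2), and 17.8 and 15.7 FPKM (scramble). OTX1 had 1.22 and 1.01 FPKM (shRNA1), 1.25 and 1.15 FPKM (shRNA2), and 1.8 and 2.03 FPKM (scramble), below scramble in all 4 hairpin libraries, with adjusted p = 0.3 (shRNA1) and 0.114 (shRNA2) by limma.

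**Figure D4:**
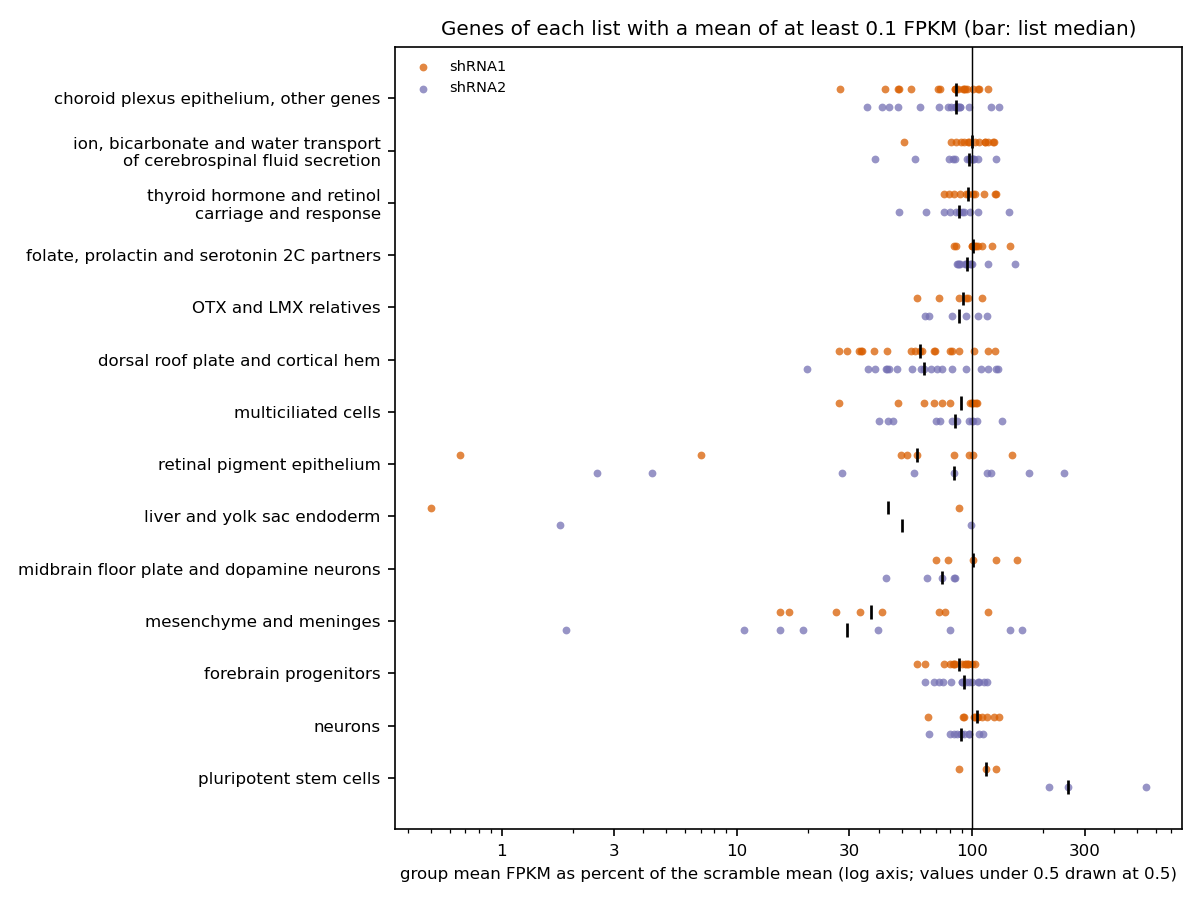
Each gene averaging 0.1 FPKM or more in 14 gene lists, as the group mean in percent of the scramble mean (horizontal log axis), shRNA1 in orange above shRNA2 in purple, with a short bar at the list median. The retinal, endoderm and mesenchyme lists reach furthest to the left, and the plotted pluripotency genes with shRNA2 lie to the right of 100 percent.

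Genes of liver and yolk sac endoderm, where TTR is also made, were in part lower in the same libraries as TTR. Of 14 such genes 0 reached a mean of 1 FPKM, and 9 were below both scramble libraries in all 4 hairpin libraries, as were 8.7% of all genes. Their summed level was 0.298 to 0.412 FPKM (shRNA1), 0.237 to 0.344 FPKM (shRNA2) and 1.15 to 1.33 FPKM (scramble). AFP, the fetal serum protein alpha-fetoprotein, was listed at 0 in both shRNA1 libraries, at 0.00367 and 0.00768 FPKM with shRNA2, and at 0.395 and 0.25 FPKM with scramble. These are about 0 and 0 reads (shRNA1), 1 and 2 reads (shRNA2), and 60 and 63 reads (scramble). APOA2, FGA and SOX17 were listed at 0 in all 4 hairpin libraries. In scramble APOA2 had 0.25 and 0.219 FPKM, FGA 0.0542 and 0.0819 FPKM, and SOX17 0.0182 and 0.0276 FPKM. These scramble values rest on few reads, about 11 and 16 for APOA2, 10 and 25 for FGA, and 1.99 and 4.98 for SOX17. ALB, the albumin gene, was above scramble with shRNA1 and overlapped it with shRNA2, with 0.0629 and 0.049 FPKM (shRNA1), 0.0602 and 0.0333 FPKM (shRNA2), and 0.0127 and 0.0345 FPKM (scramble). The part of such cells in the TTR difference was not tested.

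Several retinal genes were lower in the same libraries. Of 11 retinal pigment epithelium and eye field genes 1 was tested and 0 called, and 6 were below scramble in all 4 hairpin libraries, as were 8.7% of all genes. RAX, an eye field transcription factor, had 0 and 0.00684 FPKM (shRNA1), 0.0161 and 0.0101 FPKM (shRNA2), and 0.391 and 0.64 FPKM (scramble). LRAT, an enzyme of the visual cycle, was above scramble with both hairpins (147% with shRNA1 and 174% with shRNA2), and DCT, a pigment enzyme, with shRNA2 (244%). These 3 genes were named after their values were seen. The summed level of the list, most of it BEST1, was 10.9 to 11.0 FPKM (shRNA1), 9.81 to 10.2 FPKM (shRNA2) and 12.2 to 14.2 FPKM (scramble). The part of retinal cells in the TTR and LMX1A differences was not tested.

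Of 14 mesenchyme and meninges genes 10 were below scramble in all 4 hairpin libraries, as were 8.7% of all genes. PRRX1, a mesenchymal transcription factor, was below scramble with shRNA1 (71.8%) and above it with shRNA2 (144%), and was named after its values were seen. Of the 14, 2 were tested. COL3A1 was called lower, by -1.52 ± 0.0744 with shRNA1 (adjusted p = 0.0169, limma) and -2.03 ± 0.0744 with shRNA2 (adjusted p = 0.00866), though it averaged 1 FPKM or more only through the scramble libraries. ZIC1, also a gene of dorsal neural progenitors, rose with shRNA2 by 0.675 ± 0.0781 (adjusted p = 0.0496). COL3A1 passed in 4 of 15 alternatives for shRNA1 (adjusted p up to 0.431) and 9 of 16 for shRNA2 (up to 0.139), and ZIC1 in 5 of 17 (up to 0.373). The summed level, most of it ZIC1, was 19.0 to 19.3 FPKM (shRNA1), 24.6 to 26.2 FPKM (shRNA2) and 20.4 to 23.1 FPKM (scramble). DCN, a proteoglycan gene of connective tissue, was listed at 0 in shRNA2 replicate 2. The part of mesenchymal cells in the TTR difference was not tested.

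Midbrain floor plate and dopamine neuron genes were at unequal levels. EN1 was listed at 0 in 5 of the 6 libraries and FOXA2 in all 4 hairpin libraries, with 0.0164 and 0.0273 FPKM of FOXA2 in scramble. TH, which makes the dopamine precursor, lay between 0.456 and 0.931 FPKM, and DDC, the next enzyme, between 0.761 and 1.22 FPKM, in the range of LMX1A. Unlike LMX1A, both were above scramble with shRNA1 (154% for TH and 126% for DDC). With shRNA2 TH overlapped scramble (84.7%) and DDC was below it (83.9%). Of the 12 genes 3 were below scramble in all 4 hairpin libraries, beside 8.7% of all genes, and the summed level, most of it from other genes of the list, was 17.5 to 17.9 FPKM (shRNA1), 12.2 to 13.3 FPKM (shRNA2) and 14.5 to 19.9 FPKM (scramble). The part of such cells in the LMX1A difference was not tested. Of 14 multiciliated cell genes 5 were below scramble in all 4 hairpin libraries, again beside 8.7% of all genes. DNAI1, a cilium motor gene named after its values were seen, was above scramble with shRNA2 (133%). The summed level of the 14 was 15.7 to 15.9 FPKM (shRNA1), 15.5 to 15.8 FPKM (shRNA2) and 17.1 to 17.3 FPKM (scramble).

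Of 14 forebrain progenitor genes 13 were tested and of 12 neuronal genes 9 were tested, with 0 called in any comparison. Progenitor genes summed to 246.0 to 247.0 FPKM (shRNA1), 254.0 to 262.0 FPKM (shRNA2) and 258.0 to 278.0 FPKM (scramble), and 7 of the 14 were below scramble in all 4 hairpin libraries, beside 8.7% of all genes. VIM, an intermediate filament of progenitors, stood at 83.2% (shRNA1) and 74.8% (shRNA2) of scramble, with adjusted p = 0.386 and 0.0756 by limma. Not all went this way, as 2 of the 14 were above scramble with shRNA2, beside 15.8% of all genes. NES, the highest of the list by mean, was among them, at 93.4% (shRNA1) and 112% (shRNA2) of scramble. Neuronal genes summed to 437.0 to 441.0 FPKM (shRNA1), 375.0 to 378.0 FPKM (shRNA2) and 417.0 to 422.0 FPKM (scramble). Of 10 pluripotency genes 7 averaged under 0.1 FPKM and 2 were tested, and both were called higher with shRNA2, beside 0.187% of all tested genes. By position all 10 were above scramble with shRNA2, as were 15.8% of all genes. LIN28A, an RNA-binding protein of stem cells and early progenitors, rose by 1.05 ± 0.0727 (adjusted p = 0.0244, limma) and DPPA4 by 0.87 ± 0.0722 (adjusted p = 0.0353), with 8 and 7 of 16 alternatives passing. LIN28A had 2.86 and 2.86 FPKM (shRNA1), 5.9 and 5.63 FPKM (shRNA2), and 2.08 and 2.45 FPKM (scramble), while POU5F1 was at most 0.0498 FPKM in any library. The part of these cells in the results above was not tested.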

How the data were processed

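The 6 libraries came from Trizol-extracted RNA depleted with RiboMinus and prepared with KAPA RNA HyperPrep, per the labels' protocols. The authors deposited FPKM values, 1 for each symbol in each library, per the file headers. The submitters' processing notes name featureCounts 2.0.1, SAMtools 1.9, HISAT2 2.1.0 and Trimmomatic 0.39, on GRCh38 (hg38). Annotation, strand setting and the handling of multi-mapped reads were not given in the sources used here. From the values 4 rows with duplicated symbols were dropped, and 0 columns were without a sample.

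Read totals were recovered from the most frequent smallest steps of the FPKM values. Reads per gene are FPKM times the GENCODE v29 exon length and that total, so they are approximate where the authors' gene length differed. The level of 3 reads covers counting error only.

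The 9 genes and the lists were chosen with earlier results of these data known. limma 3.58.1 (R 4.3.3), with a mean-variance trend, was fitted to log2(FPKM + 1) of all 6 libraries for the 18159 genes averaging 1 FPKM or more, without further scaling. Calls were made at an adjusted p under 0.05 (Benjamini-Hochberg). A second fit used log2(FPKM + 0.1) and an average of 0.1 FPKM or more. Both scales understate the change of low genes. The script was tested on simulated data. The 9 genes are named always. Of each list the called genes, up to 4 with the highest mean and defining markers near 0 could be named. The 6 genes most like TTR and OTX2 were named, leaving out clone and small RNA names. Alternatives changed the pseudocount, the filter, the scaling, the samples in the fit, the trend and the replicate block, or left out each library. Some list genes are not reported here by name. Gene positions and promoter windows are those of RefSeq on GRCh38.p14 (1-based). Python 3.11.15 with pandas 2.3.3, numpy 2.4.6 and matplotlib 3.10.9 was used.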

Additional observations from a re-analysis of the deposited data

Results flagged for a closer look

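OTX2 and PRLR had the hairpin libraries on opposite sides of the scramble libraries, as did 13 of the 199 list genes. The share of all genes with this pattern was not counted, and the lists were chosen with earlier results known. Nothing is therefore read from these counts. Values are given for OTX2, PRLR and the 5 of the 13 that were called or among the 4 highest tested genes of a list. The difference between hairpins itself passed the limma test for none of these 7. On the log2(FPKM + 1) scale the shRNA2 minus shRNA1 difference was 0.37 for OTX2 (adjusted p = 0.124), with shRNA2 above and shRNA1 below scramble. For NES, an intermediate filament of neural progenitors, it was 0.26 (adjusted p = 0.164). DCX, STMN2, GAP43 and ISL1, genes of neurons and their differentiation, lay the other way. The neuronal list did not do so as a whole. Of its 12 genes 4 lay on opposite sides, 1 was above scramble with both hairpins and 1 below with both. The difference was -0.32 for DCX (adjusted p = 0.141), -0.18 for STMN2 (adjusted p = 0.247), -0.30 for GAP43 (adjusted p = 0.137) and -0.32 for ISL1 (adjusted p = 0.14). For PRLR, too low for that fit, the ratio of the shRNA2 mean to the shRNA1 mean was 0.643, with adjusted p = 0.481 on the log2(FPKM + 0.1) scale.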

How the results depend on the processing

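With 2 libraries a group the numbers of changed genes depended strongly on the settings. For shRNA1 against scramble 6 genes were called; the count was 2 with a pseudocount of 0.1, alone or with genes averaging 0.1 FPKM or more, 3 for genes averaging 5 FPKM or more, 0 with no filter, 0 with only the groups compared, and 0 to 1 with 1 library left out. For shRNA2 against scramble 114 genes were called, 34 higher and 80 lower; the count was 45 when genes averaging 0.1 FPKM or more were tested, with either pseudocount, 0 with no filter, 261 for genes averaging 5 FPKM or more, 71 with quantile normalization, 35 without the trend and 1 with only the groups compared. Its split was 43 higher and 48 lower with median-of-ratios scaling and 37 higher and 34 lower with quantile normalization. With 1 library left out it ranged from 0 to 2411, with 2411 genes without scramble replicate 1 and 534 without scramble replicate 2. Between shRNA2 and shRNA1 0 genes were called; the count was 46 for genes averaging 5 FPKM or more, 957 with only the groups compared, and 0 to 1029 with 1 library left out, 978 without scramble replicate 1 and 1029 without scramble replicate 2. The cause was not tested.

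The replicate block gave 0 genes in all 3 comparisons. Same-numbered libraries did not deviate together (correlations of -0.00773 for shRNA1 and scramble, -0.15 for shRNA2 and scramble, and 0.0122 between hairpins), so the numbers are not taken as pairs. Crossing the scramble numbers, an alternative chosen after seeing the data, gave 7 genes for shRNA2 against scramble.

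TTR stayed below scramble in all 16 alternatives for shRNA1 and all 17 for shRNA2, and LMX1A, CLIC6 and FOLR1 did so too. The alternatives reuse the same libraries, in which these genes did not overlap scramble, so their sign could hardly change. TTR was also chosen from this difference, so nothing is read from the kept sign. AQP1 between hairpins and SLC4A5 with shRNA1 each changed sign in 1 alternative. For shRNA2 against shRNA1 the adjusted p ranged from 0.0561 to 0.715 for TTR and from 0.0415 to 0.736 for OTX2. Depth limits FOLR1 most, at 0.99 to 10.9 reads a library.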
